A study of Mus musculus with 12 samples.

Results

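Interferon response genes are the transcripts that cells switch on when an interferon, a cytokine released on viral infection or by activated lymphocytes, binds its receptor. The set was a list of 39 gene symbols taken from common knowledge of the pathway, and each gene was read from the 1 probe set whose mean signal was highest. The arrays measured 36 of the 39, out of 12393 genes with a probe set of their own. Ifi44 and Ddx58 were not analysed here, nor was Isg15, whose probe set carries several symbols. The levels came from c-Myc-driven mammary tumours of female mice with and without the kinase Hunk.

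Mammary tumour RNA was hybridised to 12 Affymetrix mouse arrays, 6 per Hunk genotype. All mice were FVB females that carried the c-myc oncogene under the mouse mammary tumour virus (MMTV) promoter, which is active mainly in mammary epithelium. In the 6 knockout samples (MMTV-c-myc/Hunk KO) the putative Hunk promoter and exon 1 had been replaced by a neomycin resistance cassette between LoxP sites, in E14 embryonic stem cells. The 6 wild-type samples had intact Hunk alleles and the same transgene. Ages are not given in the sources used here. The labels number the samples without saying that each came from its own mouse, so a numbered tumour means the sample on 1 array, and p-values measure the spread between these samples, which may be partly technical.

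All values are deposited log2 signals, and a difference of 1 is a doubling. Background was set on each array by its brightest control probe set for Bacillus sequences, to which mouse RNA should not bind, and lay between 3.60 and 4.00 in the knockout and between 3.45 and 3.75 in the wild type. Hunk itself was at 2.60 to 3.06 in the knockout and 2.99 to 5.53 in the wild type, so wild-type tumour 6, at 2.99, was within the knockout range. Hunk was below array background in every knockout tumour and in wild-type tumours 4 (3.32) and 6. Knockout tumours 4 and 5 were the most alike within either group: the SD of their difference over the genes tested was 0.333, against 0.542 to 0.974 for the other pairs. The epithelial keratins Krt8 and Krt18 were above background on all 12 arrays.

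Type I interferons act through a receptor that activates the kinases Jak1 and Tyk2. The signal reaches Stat2 and Irf9, which act in a complex at the interferon-stimulated response element (ISRE). Interferon gamma acts through Jak1 and Jak2 and the gamma-activated site (GAS), and it induces Irf1, guanylate-binding proteins, immunity-related GTPases and the chemokine Cxcl9 most strongly. In mammary tumours these genes can be expressed by the cancer cells as well as by leukocytes, and in bulk tissue fewer cells of a type and less RNA per cell cannot be told apart.

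The promoters of members whose levels are described below are shown because they carry one of the elements through which interferons act. Sequences are from RefSeq on the GRCm38.p6 assembly, which held 250 bases before to 50 bases after the start of 29 of the 36 genes. Both strands were searched for the ISRE core GAAANNGAA and the GAS core TTCNNNGAA, which can overlap each other. The ISRE core was found in 16 of 29 members (55.2%), against 9.76% of the 27025 genes of the table. The GAS core was found in 12 of 29 (41.4%), against 9.55%. Each line runs 5′ to 3′ along the gene's strand, with a single core in capitals. The Ifit1, Oas1a and Bst2 lines also hold further ISRE cores in lower case, and the Bst2 and Igtp lines a GAS core. In Ifit1, Ifit3 and Gbp2 the ISRE lies on the opposite strand and its reverse complement is shown.
Ifit1: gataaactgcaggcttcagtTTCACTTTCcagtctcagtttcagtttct
Ifit3: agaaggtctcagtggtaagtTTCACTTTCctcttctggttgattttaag
Oas1a: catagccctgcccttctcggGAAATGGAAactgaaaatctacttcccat
Bst2: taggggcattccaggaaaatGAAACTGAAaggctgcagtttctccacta
Cxcl10: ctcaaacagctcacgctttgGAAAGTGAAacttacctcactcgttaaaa
Gbp2: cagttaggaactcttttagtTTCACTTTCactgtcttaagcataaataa
Igtp: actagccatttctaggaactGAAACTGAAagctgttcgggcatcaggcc
Irf1: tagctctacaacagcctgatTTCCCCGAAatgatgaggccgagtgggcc

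The Ifit1 window is chr19:34640766-34640814 on the plus strand and the core begins 103 bases before the gene's start. The Ifit3 window, on the same strand, is chr19:34583354-34583402, 155 bases before. Oas1a lies on the minus strand, with its window at chr5:120907517-120907565, 20 bases before the start. The Bst2 window is chr8:71537568-71537616 on the minus strand, 124 bases before. The Cxcl10 window is chr5:92349074-92349122 on the minus strand, 213 bases before. Gbp2 and Igtp lie on the plus strand, at chr3:142620585-142620633 and chr11:58199502-58199550, 58 and 34 bases before their starts. Irf1 shows the GAS core, at chr11:53769904-53769952 on the plus strand, 90 bases before. A match describes the letters in this window and is not a measured binding site.

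Of the 36 members 13 were above background on all 12 arrays, 6 on none and 17 on some. A gene is called raised in a tumour where it lay at least 1 log2 unit above the median of that tumour's group, a rule chosen after seeing the data. In wild-type tumour 3, 19 of the 36 genes were raised (52.8%), while 1.04% of all 12393 genes were. In wild-type tumour 2 it was 18 of 36 (50%), against 1.42% of all genes. The rule sets no background limit, and Irf7 (3.42) and Cxcl9 (3.73) among these were under that array's background of 3.75. Knockout tumour 6 had 10 of 36 raised (27.8%), against 1.71%, and knockout tumour 2 had 2 of 36, Bst2 and Oas1a, against 1.44%.

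No member was raised in the other 8 tumours. The shares of all genes raised in them were 4.03% in knockout tumour 1, 1.05% in knockout tumour 3, 1.15% in knockout tumour 4, 1.38% in knockout tumour 5, 3.04% in wild-type tumour 1, 0.694% in wild-type tumour 4, 2.66% in wild-type tumour 5 and 1.16% in wild-type tumour 6. Some members lay just under 1 unit: in knockout tumour 6 Gbp3 was 0.99 above the median, Trim25 0.95, Gbp2 0.92 and Ifit3 0.91, and in knockout tumour 2 Usp18 was 0.9997 above it.

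**Figure D1:**
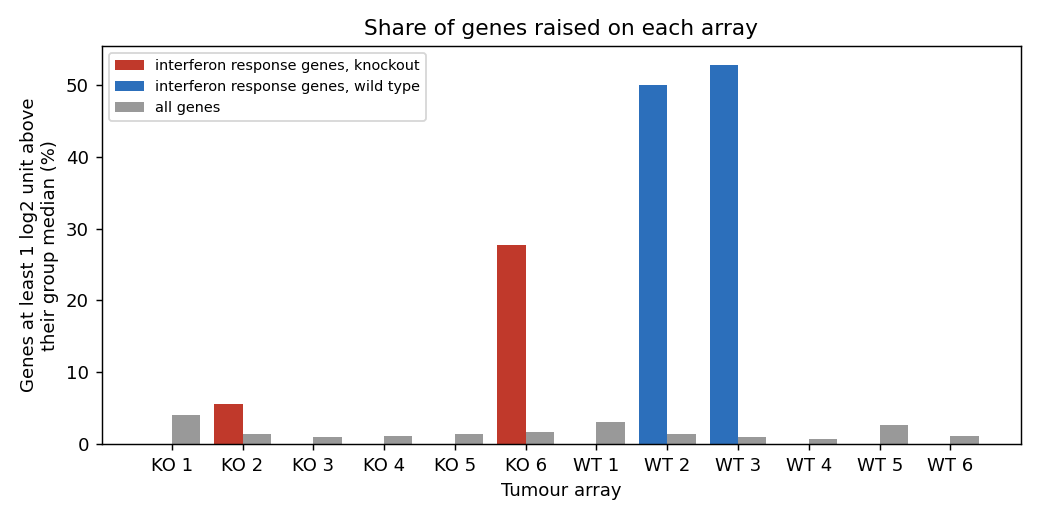
Share of genes (%, y axis) at least 1 log2 unit above their group median on each of the 12 tumour arrays (x axis), with interferon response genes in red (knockout) or blue (wild type) and all genes in grey. The coloured bars reach 27.8% in knockout tumour 6, 50% in wild-type tumour 2 and 52.8% in wild-type tumour 3, and the grey bars stay at or below 4.03%.

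The transcription factors of the set include Irf7, the amplifier of type I interferon production, and Irf9, the DNA-binding partner of Stat2. Irf7 had a lowest value of 1.39, a median of 1.57 and a highest value of 4.81 in the knockout, and 1.37, 1.44 and 4.34 in the wild type. Its highest values were in knockout tumour 6 and wild-type tumour 3, the only ones above array background, and wild-type tumour 2 was at 3.42. Irf9 ran from 4.60 through a median of 5.41 to 6.27 in the knockout and from 4.91 through 5.19 to 5.38 in the wild type. It was highest in knockout tumour 6 and varied little among the wild-type tumours, and the groups overlapped.

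Irf1, the factor induced most directly through the GAS core printed above, was above background on all 12 arrays. It ran from 7.03 to 7.40 in the knockout and from 6.74 to 7.76 in the wild type, and wild-type tumours 2 and 3 held the 2 highest values, 7.76 and 7.53. Stat2, the type I signal transducer, and Irf8, a factor of myeloid cells, stayed below array background on all 12 arrays, and differences in them were not measured.

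**Figure D2:**
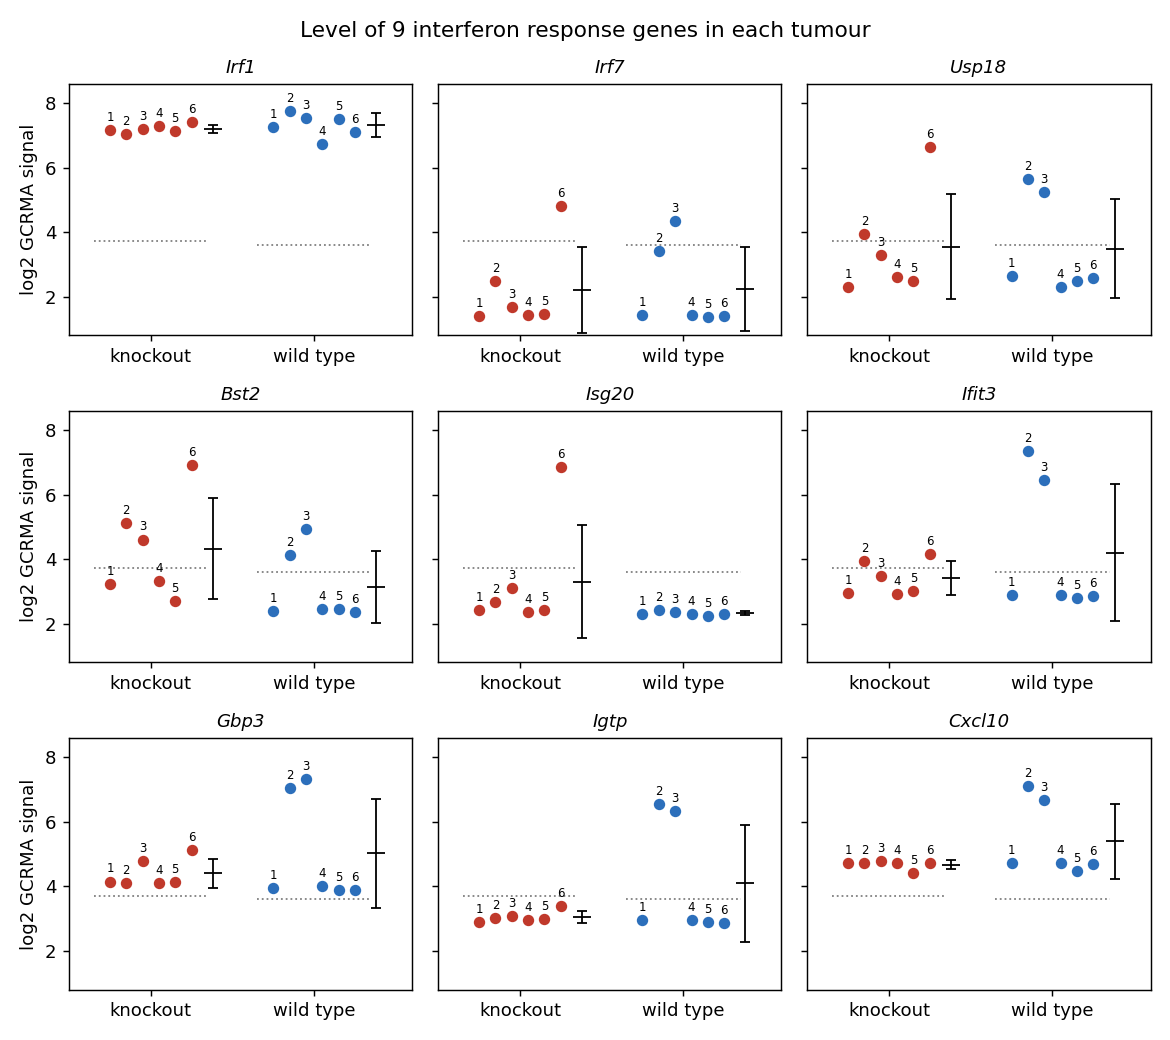
log2 GCRMA signal (y axis) of 9 members in each knockout (red) and wild-type (blue) tumour, numbered by replicate. The black bar is the mean ± SD of 6 arrays and the dotted line the mean array background of the group. Isg20 reaches 6.84 in knockout tumour 6 alone, Igtp reaches 6.54 and 6.32 in wild-type tumours 2 and 3, and Usp18 is high in all 3 of these tumours.

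Among RNA sensors and antiviral effectors the widest range was that of Isg20, an exonuclease that degrades viral RNA. In the knockout Isg20 had a lowest value of 2.37, a median of 2.55 and a highest of 6.84, and in the wild type 2.25, 2.31 and 2.42. The single value above background was that of knockout tumour 6, and in wild-type tumours 2 and 3 it was at 2.42 and 2.36. Ifit3, which binds Ifit1 and helps it to recognise foreign RNA, showed the opposite layout.

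Ifit3 ran from 2.93 through a median of 3.25 to 4.17 in the knockout, and from 2.79 through 2.89 to 7.35 in the wild type. Wild-type tumours 2 and 3, at 7.35 and 6.47, stood more than 2 units above knockout tumour 6, the highest of the knockout. Ifit1, which binds viral RNA caps, was at 4.85 and 6.00 in wild-type tumours 2 and 3 and at 1.76 to 2.87 elsewhere, below background. Ifit2 was at 5.81 and 6.02 in the same tumours and below background in the other 10, knockout tumour 6 included at 3.44.

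The 2′-5′ oligoadenylate synthetases make the messenger that activates RNase L. Oas1a was above background on all 12 arrays, with 7.81 in knockout tumour 6, 6.57 in knockout tumour 2, 6.34 in wild-type tumour 3 and 5.41 in wild-type tumour 2. The other tumours lay between 4.26 and 5.44. Oas2 was above background in knockout tumour 6 alone, at 4.73. The related Oasl1 and Oasl2 were raised in all 3 tumours: Oasl1 was at 4.81 in knockout tumour 6, 5.30 in wild-type tumour 2 and 5.67 in wild-type tumour 3, and Oasl2 at 4.62, 4.74 and 5.91.

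Bst2, the tether that holds budding virus at the cell surface, was above background in 3 knockout and 2 wild-type tumours. It was at 6.93 in knockout tumour 6, 5.11 in knockout tumour 2 and 4.61 in knockout tumour 3, against 4.14 and 4.94 in wild-type tumours 2 and 3. It was below background in the other 7. Ifih1, the sensor of long double-stranded RNA known as MDA5, was at 5.23 in knockout tumour 6 and 5.23 in wild-type tumour 3, with 4.77 in wild-type tumour 2 and 4.05 in knockout tumour 2.

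Rsad2, the antiviral enzyme viperin, was at 5.54 and 5.74 in wild-type tumours 2 and 3 and between 2.16 and 3.75 elsewhere. Its other 2 probe sets were above background in those tumours alone. Zbp1, a sensor of Z-form nucleic acid, was highest in knockout tumour 6, at 5.39, with the other 11 tumours between 3.63 and 4.35. Its second probe set was below background throughout.

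Ifi35, Samhd1 and Eif2ak2 were above background on all 12 arrays and varied less than Oas1a. Ifi35, a cytoplasmic regulator of the response, was at 8.01 in wild-type tumour 3 and at 5.65 to 7.09 elsewhere. Samhd1, which depletes the nucleotides retroviruses need, was at 6.90 in wild-type tumour 3 and 5.74 to 6.21 elsewhere. Eif2ak2, the double-stranded RNA-activated kinase PKR, ran from 5.26 to 6.05 and was highest in knockout tumour 6.

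Parp14, an ADP-ribosyltransferase, was above array background in knockout tumour 6 (3.69) and wild-type tumour 2 (3.93), and only narrowly. The antiviral GTPases Mx1 and Mx2, among the classic markers of type I interferon, gave almost no signal: Mx1 was below background on all 12 arrays and Mx2 above it in wild-type tumour 3 alone, at 3.82. Adar, the RNA-editing deaminase, was also below background on all 12.

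Of the ubiquitin and ISG15 regulators, Usp18, which removes ISG15 from proteins and damps the type I receptor, was raised in each of the same tumours. It had a lowest value of 2.31, a median of 2.95 and a highest of 6.64 in the knockout, and 2.31, 2.61 and 5.63 in the wild type. Knockout tumour 6 held the highest value, followed by wild-type tumours 2 (5.63) and 3 (5.25) and knockout tumour 2 (3.95). Trim25, the ubiquitin ligase that activates RIG-I, was strongly expressed throughout and ran from 7.31 through a median of 8.21 to 9.17 in the knockout and from 8.36 through 8.84 to 9.27 in the wild type. Knockout tumours 1, 4 and 5, at 7.53, 7.38 and 7.31, lay below every wild-type tumour and the other 3 knockout tumours within the wild-type range. Its other 2 probe sets correlated with it at r = 0.94 and 0.76 over the 12 arrays.

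The GTPases that interferon gamma induces to attack intracellular pathogens were highest in wild-type tumours 2 and 3. Ifit1, Ifit2 and Rsad2 were highest in the same tumours, while Usp18 and Isg20 were highest in knockout tumour 6. Igtp had a lowest value of 2.88, a median of 3.00 and a highest of 3.39 in the knockout, all below background, and 2.87, 2.95 and 6.54 in the wild type. Only wild-type tumours 2 and 3, at 6.54 and 6.32, gave a signal above it. Gbp3 ran from 4.10 through 4.14 to 5.13 in the knockout and from 3.89 through 3.98 to 7.34 in the wild type, with wild-type tumours 2 and 3 at 7.06 and 7.34.

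Gbp2 was at 7.02 in wild-type tumour 2, 5.30 in wild-type tumour 3 and 5.15 in knockout tumour 6, and its second probe set at 7.57, 5.75 and 4.35 in the same tumours. Iigp1 was at 6.10 and 6.17 in wild-type tumours 2 and 3. Its second probe set separated them further, at 6.77 and 7.34 against 2.68 to 3.21 in the other 10 tumours. Irgm1 was at 5.89 in wild-type tumour 3, 4.20 in wild-type tumour 2, 3.97 in wild-type tumour 5 and 3.78 in knockout tumour 6. All 5 GTPases were raised in wild-type tumour 3, 4 of 5 in wild-type tumour 2 and 0 of 5 in knockout tumour 6. In the last, Gbp3 was 0.99, Gbp2 0.92 and Irgm1 0.83 above the median. The second Gbp2 probe set, at 4.35 there, was at 2.63 to 3.27 in the other knockout tumours. The count of 0 thus depends on the cut and on the probe set.

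The immunoproteasome subunits replace catalytic subunits of the proteasome and cut peptides for MHC class I. Psmb8 had a lowest value of 4.29, a median of 4.59 and a highest of 5.21 in the knockout, and 4.24, 4.97 and 6.53 in the wild type. Its highest values were in wild-type tumours 3 and 2, at 6.53 and 6.26. Psmb10 ran from 4.89 through 5.25 to 6.18 in the knockout and from 5.12 through 5.47 to 6.26 in the wild type, with knockout tumour 4 and wild-type tumour 5 highest. In Psmb8 too the highest knockout values were those of tumours 4 (5.21) and 5 (5.05), and wild-type tumour 5 was at 5.42. Psmb9 was below background on all 12 arrays.

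The chemokines Cxcl9 and Cxcl10 attract T cells through the receptor Cxcr3. Cxcl10 had a lowest value of 4.40, a median of 4.72 and a highest of 4.77 in the knockout, and 4.48, 4.73 and 7.11 in the wild type. It was at 7.11 and 6.67 in wild-type tumours 2 and 3 and flat at 4.40 to 4.77 in all 10 others, knockout tumour 6 included. Cxcl9 ran from 2.44 through 2.50 to 2.63 in the knockout and from 2.38 through 2.48 to 3.73 in the wild type, below background on every array, with its highest value in wild-type tumour 2.

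**Figure D3:**
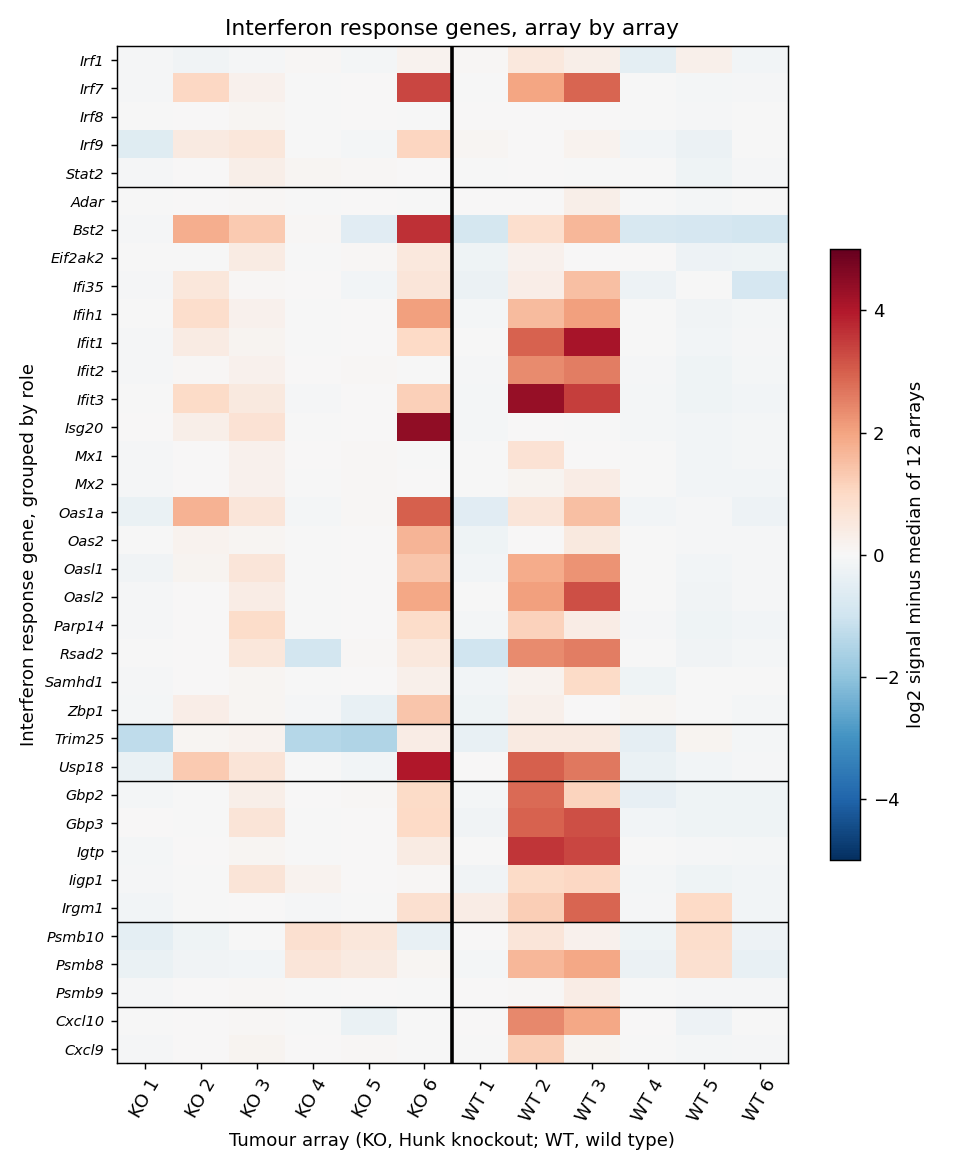
log2 signal of each of the 36 members minus its median over the 12 arrays (colour; red above, blue below), with genes in rows grouped by role and tumours in columns. Wild-type tumours 2 and 3 are red over most effectors, GTPases and chemokines, and knockout tumour 6 over Irf7, Usp18, Bst2, Isg20 and the oligoadenylate synthetases.

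The members raised in these 3 tumours overlapped in part. Wild-type tumours 2 and 3 shared 16, which was 88.9% of the genes raised in the first and 84.2% of those in the second. Knockout tumour 6 shared 7 with wild-type tumour 3, 70% of its own and 36.8% of the other's, and 6 with wild-type tumour 2, 60% and 33.3%. Raised in all 3 were Bst2, Ifih1, Irf7, Oasl1, Oasl2 and Usp18, although Irf7 was below array background in wild-type tumour 2, at 3.42. Isg20, Oas2 and Zbp1 were raised in knockout tumour 6 and in neither of the wild-type tumours. Another 10 were raised in both wild-type tumours and not in knockout tumour 6: Cxcl10, Gbp2, Gbp3, Ifit1, Ifit2, Ifit3, Igtp, Iigp1, Psmb8 and Rsad2. Of these, Gbp2, Gbp3 and Ifit3 lay between 0.91 and 0.99 above the median in knockout tumour 6. The second Gbp2 probe set was at 4.35 there, against 2.63 to 3.27 in the other knockout tumours. Cxcl10 and Iigp1 lay 0.00057 and 0.03 from the median there, and Ifit2 was below background. Single tumours give no replicate check, so these layouts are descriptions of 3 samples.

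**Figure D4:**
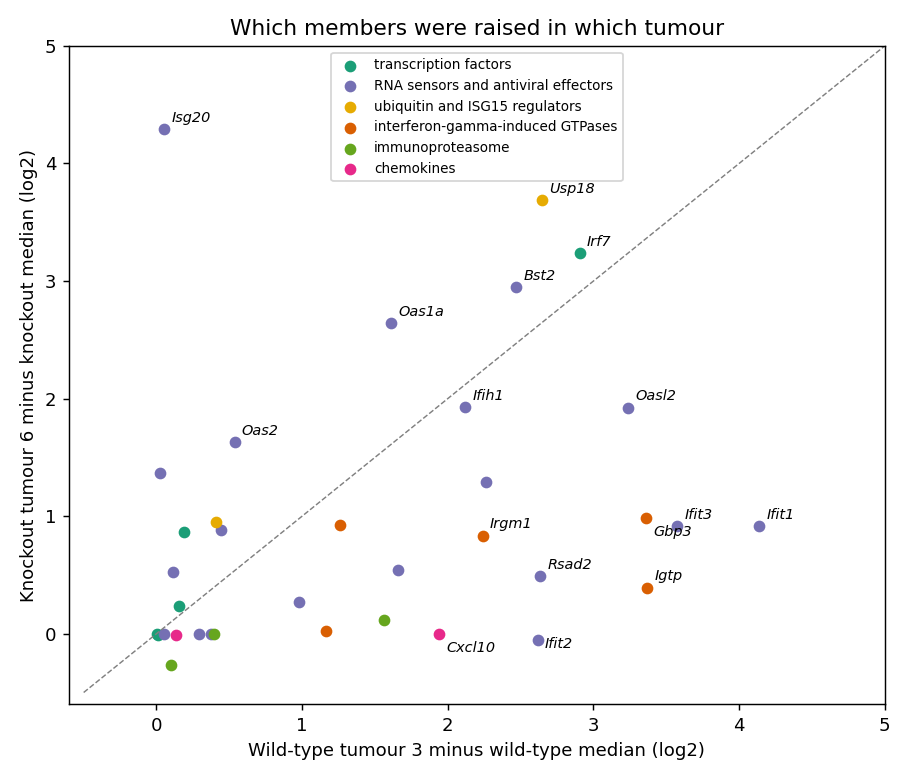
Each point is 1 member, placed by its log2 difference from the group median in wild-type tumour 3 (x axis) and in knockout tumour 6 (y axis) and coloured by role, with equality as a dashed line. Isg20 lies near the y axis, Usp18, Irf7, Bst2 and Ifih1 near the line, and Igtp, Ifit1, Ifit2 and Cxcl10 toward the x axis.

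The members varied together within each genotype. Over the 6 wild-type tumours the median Pearson correlation between pairs of the 14 members above the level filter was 0.68, with 89 of 91 pairs positive, and over all tested genes it was 0.004. Over the 6 knockout tumours it was 0.43, with 68 of 91 positive, against 0.013. Without knockout tumour 6 the knockout value was 0.19, and leaving out any 1 wild-type tumour gave 0.62 to 0.79. Wild-type tumours 2 and 3, which shared 16 raised members, were not left out together. In the knockout Psmb10 and Psmb8 had median correlations of -0.34 and -0.10 with the other members, while Irf9 had 0.80. All points share the same 6 arrays, so these values describe them and carry no p.

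The spread between tumours was wider for the members than for genes at large. Their median SD was 0.40 in the knockout and 0.68 in the wild type, against 0.18 and 0.15 over all genes. An SD above 1 was found for 16 of 36 members among the wild-type tumours, against 2.78% of all genes, and for 5 of 36 among the knockout tumours, against 3.15%. Those 5 were Irf7, Isg20, Oas1a, Usp18 and Bst2.

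The next comparison asked whether the interferon response differed between tumours with and without Hunk. No member differed past the threshold: 0 of the 14 members above the level filter had a limma adjusted p below 0.05 in a fit over 6825 genes, of which 228 passed (3.34%; 113 higher and 115 lower in the knockout). At an unadjusted p below 0.05 the count was also 0 of 14, against 19.5% of the 6825 genes. The 22 members below the filter were read from a limma fit without it, in which 0 of the 36 passed and 112 of 12393 genes did (0.904%). At the unadjusted threshold the limma count was 0 of 36, against 12.3% of all genes. For 0 of 36 members did the 6 knockout values lie apart from the 6 wild-type values, against 1.89% of all genes.

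A positive difference means a higher mean in the knockout. Among the 36 members 12 had a positive and 24 a negative difference, so 33.3% were positive against 67.2% of all genes, and the median was -0.06 against 0.04. The sign of that median turned without wild-type tumour 2 (0.02) or wild-type tumour 3 (0.02). It also turned with values raised to array background. All 5 GTPases, all 3 immunoproteasome subunits and both chemokines had negative differences, as did 11 of the 19 sensors and effectors, none of them past the threshold. Stat2, Irf8, Mx1, Adar, Psmb9 and Cxcl9 were below background on all 12 arrays, so their signs, though counted here, were not measured. The difference of Gbp2 became 0.16 without wild-type tumour 2, that of Iigp1 0.05 without wild-type tumour 2 and 0.06 without wild-type tumour 3, and that of Psmb10 0.12 with array weights. The differences of Iigp1 and Gbp2 also depended on the probe set. With the mean of the probe sets of a gene they were -0.66 and -0.57, against -0.10 and -0.30 with the probe sets used.

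Bst2 had the largest positive difference, 1.19 (limma 95% interval -0.35 to 2.73, adjusted p = 0.494), which was 0.67 without knockout tumour 6. Isg20 followed at 0.98 (-0.43 to 2.39, adjusted p = 0.511) and was at 0.27 without that tumour. Oas1a differed by 0.65 (-0.56 to 1.85, adjusted p = 0.528), and by 0.21 without it. With the probe sets used, the most negative difference was that of Igtp, -1.04 (-2.50 to 0.42, limma adjusted p = 0.507). It was -0.55 without wild-type tumour 2 and -0.59 without wild-type tumour 3. That of Ifit1 was -0.90 (-2.45 to 0.66), and -0.53 and -0.30 without wild-type tumours 2 and 3. That of Ifit3 was -0.79 (-2.54 to 0.96), and -0.16 and -0.34 without them. That of Cxcl10 was -0.73 (-1.67 to 0.22, adjusted p = 0.366), and -0.38 and -0.47 without them. Every one of these intervals holds 0.

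Members with little spread gave tighter bounds. Eif2ak2 differed by 0.23 (-0.07 to 0.53, adjusted p = 0.362), Irf1 by -0.12 (-0.47 to 0.24, adjusted p = 0.712) and Samhd1 by -0.08 (-0.47 to 0.32, adjusted p = 0.83). Trim25 differed by -0.62 (-1.41 to 0.17, adjusted p = 0.354). It had the lowest adjusted p of any member over all fits tried, 0.194.

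**Figure D5:**
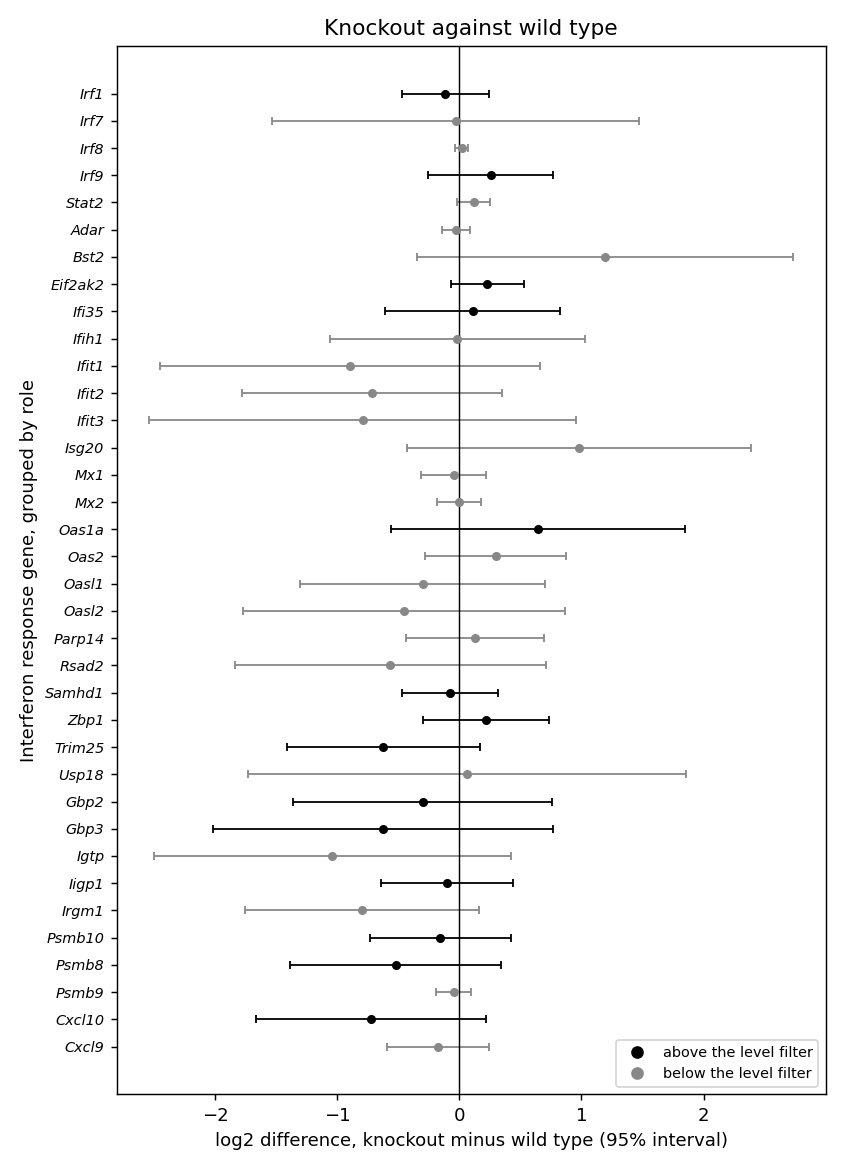
log2 difference, knockout minus wild type (x axis), of the 36 members grouped by role, with 95% limma intervals over 6 tumours against 6. Black points are members above the level filter and grey points members below it, many of them at background. The intervals of Bst2 (-0.35 to 2.73), Igtp (-2.50 to 0.42) and all other members include 0.

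The rest of the pathway was read from a list of 109 further genes, 77 of them measured. Of the 44 above the level filter 0 rose, 0 fell and 44 did not pass, against 3.34% of all genes tested, and 5 had an unadjusted limma p below 0.05, against 19.5%. The 9 ligand genes measured, alpha interferons among them, were below background on all 12 arrays. Of 9 receptors, kinases and Stat proteins measured, 8 passed the level filter. Stat3, the transcription factor with the highest probe signal among them, averaged 8.99 ± 0.45 against 9.60 ± 0.40 in knockout and wild-type tumours (SD, n = 6 each; limma adjusted p = 0.171). The inducer with the highest probe signal was Irf3, the factor that starts interferon transcription, at 7.68 ± 0.16 and 7.82 ± 0.20 (SD, n = 6 each), and the brake was the phosphatase Ptpn11, at 8.34 ± 0.18 and 8.32 ± 0.50 (SD, n = 6 each).

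Among 38 other interferon-induced genes measured, 15 were raised in wild-type tumour 3, 10 in wild-type tumour 2 and 6 in knockout tumour 6, the same tumours in which the members were raised. Of all genes 1.04%, 1.42% and 1.71% were raised in these tumours, in the same order. Knockout tumours 1 and 2 had 2 each and knockout tumour 3 had 1, against 4.03%, 1.44% and 1.05% of all genes. Ifitm3, which blocks viral entry and had the highest probe signal of the 38, was at 9.68 in knockout tumour 6, the lowest of all 12. The following were picked after their values were seen. Rtp4, an interferon-induced chaperone, was at 8.43 in knockout tumour 6, 7.42 in knockout tumour 3, 7.29 in wild-type tumour 2, 7.23 in knockout tumour 2 and 6.94 in wild-type tumour 3, and at 2.99 to 3.79 in the other 7. Gbp7 repeated the layout of the GTPases, at 7.02 and 6.77 in wild-type tumours 2 and 3 and 4.78 in knockout tumour 6. B2m, H2-K1 and H2-D1, the parts of MHC class I, were raised in wild-type tumour 3 alone, with B2m 0.93 above the median in knockout tumour 6.

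Markers of other cell types were read in the same tumours, and their part in the levels above was not tested. The summed linear signal of 5 pan-leukocyte markers, of which 3 were above background on all 12 arrays, was 527 in wild-type tumour 2, the highest of a wild-type range of 319 to 527. It was 456 in wild-type tumour 4, where no member was raised, 373 in wild-type tumour 3 and 330 in knockout tumour 6, with a knockout range of 226 to 347. The mean log2 level of the same markers was highest in wild-type tumours 2 (6.20) and 3 (5.43), with 5.33 in wild-type tumour 4 and 4.94 in knockout tumour 6. The sum of 9 macrophage markers was highest in knockout tumour 6, at 2448 in a knockout range of 1148 to 2448, and lowest of the wild type in wild-type tumour 2, at 1296 in a range of 1296 to 1743. Cd14, the lipopolysaccharide co-receptor, gave 1487 of the sum in knockout tumour 6, and without it the other 8 markers summed to 960 there and to 1374 in knockout tumour 1, the highest of the knockout.

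Of 7 T cell markers measured, Cd3d, Cd3g, Cd2 and Cd8a were below background on all 12 arrays and Cd3e, Cd4 and Cd247 above it on all 12, at 4.15 to 5.29. Also below background on all 12 were all 6 cytotoxic and NK cell markers and all 7 dendritic cell markers measured. The sum of 4 neutrophil markers was 913 in wild-type tumour 2, the highest of all 12, and 261 in knockout tumour 6, where the knockout range was 49.3 to 500. In wild-type tumour 3 it was the lowest of the wild type. The high sums came mostly from S100a8 and S100a9, at 8.91 and 8.66 in wild-type tumour 2. In knockout tumour 6 S100a8 was at 7.82 and S100a9 at 3.61, under that array's background of 3.66. Csf3r was below background on all 12 arrays, and Cxcr2 ran only from 3.99 to 4.48. The sum of 7 epithelial markers was 8275 in wild-type tumour 2, the lowest of a wild-type range reaching 16762, and 14492 in wild-type tumour 3. The beta-actin 3′ minus 5′ difference, a sign of RNA quality, was 1.33 and 1.29 in wild-type tumours 2 and 3 and 1.50 in knockout tumour 6, within the wild-type range of 1.21 to 1.34 and the knockout range of 1.26 to 1.72.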

How the data were processed

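Total RNA of 12 tumour samples was hybridised to 1 array each. The labels number these samples and do not say that each was a separate tumour. The deposited values are log2 signals of 22690 probe sets made with GCRMA, per the submitters' processing notes, which name no version. GCRMA holds low signals near a common floor, so differences near background are compressed. Values were used as deposited. Scan dates and other batches are not given in the sources used here.

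Probe sets were named from the platform annotation (20393 with 1 symbol, 691 with several, 1606 not listed), and a gene was its probe set of highest mean. Genes with a mean above 3.98, the median over probe sets, entered limma 3.58.1 in R 4.3.3 (lmFit, eBayes with trend, a single term for genotype). P-values were adjusted by Benjamini-Hochberg over all genes tested, with a threshold of 0.05. Members below it came from the fit without a filter. Per-tumour values were given for the 2 members of each role with the widest range over 12 arrays, and other members by their range or their high tumours. The members, lists and tests were chosen with earlier results of these data known.

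On simulated data for knockout against wild type with 6825 genes, 68% of 100 changes of 1 log2 unit and 97% of 100 changes of 2 were recovered, with 9 false calls. The changes were planted in genes drawn at random above the filter, with normally distributed values. The members had a median SD of 0.40 in the knockout and 0.68 in the wild type, against 0.18 and 0.15 over all genes. These rates therefore do not give the recovery for the members. Same-numbered knockout and wild-type arrays had correlations of deviations of -0.04 to 0.14. For knockout arrays 2, 5 and 6 the best-correlated wild-type array was the same-numbered one. The numbers were not taken as pairs, and a fit with the replicate number as a block is given below as an alternative. Figures used matplotlib 3.10.9.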

Additional observations from a re-analysis of the deposited data

Results flagged for a closer look

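In groups of 6 tumours, a value was singled out where its gap to the nearest other value took more than Dixon's 95% share of the group's range. This held for 17 of the 72 groups formed by the 36 members and 2 genotypes, or 23.6%, against 15.3% of the groups formed the same way by all 12393 genes, where chance alone gives about 1 in 20. The rule was also applied to a few genes picked from the rest of the pathway, for 92 groups in all. Among these few genes it held for Ccl5, a T cell chemokine. Most other pathway genes were not examined in this way. Of the 18 values, 10 were above array background. No explanation was tested.

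Knockout tumour 6 stood above the other knockout tumours for 6 members: Isg20 at 6.84, Gbp2 at 5.15, Irf7 at 4.81, Oas2 at 4.73, Oasl2 at 4.62 and Irgm1 at 3.78. All 6 were above that array's background of 3.66. Wild-type tumour 3 stood above its group for Samhd1 at 6.90 and for Ccl5 at 4.97, both above background, and for Oas2 at 3.52, Adar at 2.58 and Psmb9 at 2.28, all below it.

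Wild-type tumour 2 stood above its group for Cxcl9 at 3.73 and Mx1 at 3.73, just under its background of 3.75. Knockout tumour 3 stood above its group for Iigp1 at 5.76, and below its background of 4.00, the highest of the 12 arrays, for Mx2 at 3.68 and Ifit2 at 3.66. Knockout tumour 5 stood below its group for Cxcl10 at 4.40, and wild-type tumour 5 for Stat2 at 3.15, under its background of 3.45.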

How the results depend on the processing

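In each of the alternatives tried, 0 members passed the limma threshold for knockout against wild type. At an unadjusted limma p below 0.05 the count was 0 or 1, in most fits of the 14 members above the level filter. The fits with 1 had 1124 to 1643 of 6825 genes at that p. Without the filter the count was 0 of 36, and in the other fits members below the filter were not counted at that p. Of the 36 differences 16 kept their sign in all alternatives and 20 changed it in at least 1. The number of all genes past the threshold moved from 228 to 112 without the level filter, 390 with array weights, 69 with the replicate number as a block (replicate block), 72 with beta-actin 3′ minus 5′ as a covariate and 125 with knockout tumours 4 and 5 averaged. It ranged from 95 (without wild-type tumour 4) to 212 (without knockout tumour 1) with 1 tumour left out, and was 138 without knockout tumour 4, 135 without tumour 5, 130 without tumour 6 and 150 without wild-type tumour 5. Centring each array gave 68 higher and 126 lower calls in place of 113 and 115. The median difference of the members ran from -0.17 to 0.02 with 1 tumour left out, and was -0.28 with the beta-actin covariate and 0.04 with values raised to array background. With a rise of at least 2 log2 units, chosen after seeing the data like the next settings, 13 members were raised in wild-type tumour 3, 10 in wild-type tumour 2, 5 in knockout tumour 6 and 0 in knockout tumour 2. In knockout tumour 2 the count was 4 with centred arrays and 1 with values raised to array background. The shares of all genes raised were not counted under these settings, so these member counts have no such comparison. The median correlation ranged from 0.19 to 0.54 in the knockout and from 0.62 to 0.79 in the wild type with 1 tumour left out. The causes were not tested. Members at background on most arrays limit what could be measured.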
